A study of Bos taurus with 170 samples.

Results

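The genes described here are the 227 of the 10772 genes of the UMI table that were detected in nearly every blastomere. They were chosen by their detection: 1 or more UMI in all but at most 3 of the cells that held 2000 or more UMI (43 cells of Day 2 and 118 of Day 3), where a UMI (unique molecular identifier) marks 1 captured mRNA molecule. Of the 270 genes that passed, 43 were left out by name, which left 227 members. The names left out were those of large families (ribosomal proteins, proteasome subunits, respiratory chain subunits, translation factors, heat shock proteins and other families) and the single genes SALL4 and KLF4. Detection and overall level were thus used to choose the members and are given as a description only. The choice also required that no member was near 0 on either day, which limits how far a member could have changed between the days.

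The cleaving bovine embryo starts with mRNA stored by the oocyte, which is degraded while the genome of the embryo is switched on, in cattle mainly at the stages sampled here. Genes whose products every cell uses, for instance for spindle assembly, splicing, protein targeting or energy supply, are often taken as references in expression studies on the assumption that their level is steady over this period.

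The study sequenced single blastomeres of bovine (Bos taurus) embryos produced in vitro from oocytes of slaughterhouse ovaries and frozen-thawed sperm, by SCRB-Seq, a plate-based method that counts UMI at the 3' end of transcripts. Day 2 embryos were labelled as 8-cell stage (6 embryos of 6 to 9 kept cells, 43 in all), Day 3 embryos as 16-cell stage (8 embryos of 13 to 17 kept cells, 118 in all), and no embryo was treated. Both groups had been picked by the timing of their first cleavages, so they stand for embryos of high expected developmental potential and not for all embryos. Some of them, with Day3-E1 among these, cleaved outside the time ranges that the paper gives as optimal. The Day 3 embryos were also not all collected at the same hour. Whether these times bear on differences between embryos was not tested. The embryo was taken as the replicate and the UMI of its kept cells were summed.

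The summed UMI on genes ran from 438899 to 920192 in Day 2 embryos and from 294912 to 600185 in Day 3 embryos. Per kept cell the median was 75114 UMI on Day 2 and 24016.5 on Day 3. A gene thus generally needed a higher level on Day 3 than on Day 2 to be detected as widely. The kept cells shared barcodes: 69 cell barcodes were used for 2 kept cells each. By the barcodes in their labels, 8 embryos used a first set of barcodes (the whole of Day 2 with Day3-E1 and Day3-E2) and 5 a second (from Day3-E4 onwards), and Day3-E3 could not be placed. Day and barcode set therefore cannot be fully told apart. Plate 1 held only Day 3 embryos (Day3-E1 to Day3-E4). On plates 2 and 3 every Day 2 embryo was of the first barcode set and every Day 3 embryo of the second. The UMI on genes per UMI of the ERCC spike-in RNA followed the barcode set, with 64.8 to 71.7 in embryos of the first set and 32.6 to 40.2 in those of the second. In Day3-E3, which its barcodes do not place, the ratio was 67.9, inside the range of the first set. One embryo, Day3-E1, stood apart from the other Day 3 embryos, since 124 of the 227 members had a level inside the Day 2 range there, against 21 to 98 members in the other 7. Of 10 markers of oocyte-derived blastomeres in the table, all had UMI and 5 were members (DPPA3, KPNA7, ZP4, ZP2 and H1FOO). The summed level of 10 cumulus and granulosa markers was 498 to 607 CPM on Day 2 and 183 to 551 on Day 3, and that of 3 sperm markers was at most 7.72. CPM here means the UMI of 1 gene divided by the summed UMI on genes of the embryo, times 1000000.

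Detection moved with depth. A UMI of every member was found in 125 kept cells and 36 lacked at least 1, and 364 of the 36547 pairs of a member and a cell (0.996%) had none. Of these 364 pairs, 279 were in the 10 shallowest cells, which held at most 3341 UMI. Cells that lacked at least 1 member had a median of 8798.5 UMI and the other cells 33481. When each cell was thinned to 2000 UMI, only 7 members still passed the rule. These were AURKA, TACC3, CDCA8, CCNB1, TMSB4X, CKS2 and PRC1, and all of them but TMSB4X, which encodes an actin-sequestering peptide, belong to the machinery of cell division. At that depth a Day 2 cell showed a median of 171 members and a Day 3 cell 174, and the range over all cells was 133 to 190.

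**Figure D1:**
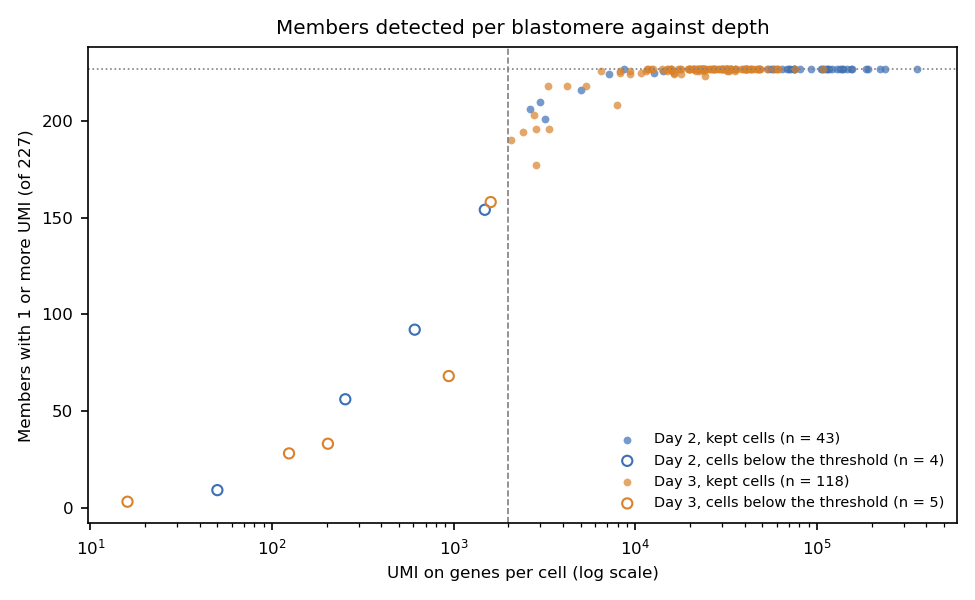
Number of the 227 members with 1 or more UMI in a blastomere (vertical axis) against the UMI on genes of that blastomere (horizontal axis, log scale). Filled points are the kept cells (n = 43 and n = 118) and open points the 9 cells below 2000 UMI (dashed line), in blue for Day 2 and in orange for Day 3, and the dotted line marks all 227 members. Most kept cells lie on the dotted line and shallower cells show fewer members on both days.

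Some cells departed from this relation. Day3-E7 cell 3 lacked 19 members although it held 7899 UMI, and AURKA took 0.354% of its UMI against 1.84% in the whole embryo. Day3-E5 cell 13, with 2852 UMI, lacked 50 members, more than the shallowest kept cell, Day3-E1 cell 12, which held 2078 UMI and lacked 37. In Day3-E5 cell 13 AURKA took 0.5259% of the UMI against 1.95% in the whole embryo.

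The 9 cells below 2000 UMI had no part in the choice of the members. They held 5276 UMI on genes in all, 217 of the 227 members had a UMI in at least 1 of them, and members took 24.9% of their UMI (95% Wilson interval 23.8% to 26.1%). The interval covers counting error only. By cell the share ran from 15.55% (interval 13.37% to 18.0%) in Day3-E8 cell 4, with 939 UMI, to 29.8% (22.5% to 38.4%) in Day3-E1 cell 8, with 124 UMI. The share in Day3-E8 cell 4 lay below that of every kept cell.

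At the threshold of the rule, 67 members lacked a UMI in exactly 3 kept cells. The most abundant of these just inside the threshold were TRA2B (mean over 14 embryos 1754 CPM), FAM192A (1398 CPM), RSRC2 (1279 CPM), NASP (1079 CPM) and TUBA1C (1066 CPM). Just outside it, 54 genes lacked one in 1 cell more, led by ZCCHC6 (1614 CPM), RBBP6 (1128 CPM), SUPT4H1 (1069 CPM), BCAR4 (1069 CPM) and METAP2 (907 CPM). The levels on both sides of the threshold overlapped. Of the 300 genes with the highest mean CPM, 171 were members, 36 were left out by name and detected as widely, 16 were left out by name and detected in fewer cells, and 77 were other genes.

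The share of all counted mRNA molecules that the members took together was 26.0% ± 0.584 (SD, n = 6) on Day 2, with a lowest, median and highest embryo of 25.5%, 25.7% and 27.0%. On Day 3 it was 26.3% ± 2.55 (SD, n = 8), with 21.7%, 27.7% and 28.5%. The difference of 0.319 percentage points was smaller than the SD of either day, and the Day 3 embryos spread on both sides of all Day 2 embryos. Day3-E8, Day3-E2 and Day3-E4 were below every Day 2 embryo and the other 5 Day 3 embryos above every one. In the embryos of the first barcode set alone the share was 0.377 points lower on Day 3. In single cells the share ran from 25.1% to 29.1% on Day 2 and from 19.6% to 32.7% on Day 3. The 43 genes left out by name took 3.54% ± 0.142 of the UMI on Day 2 and 4.81% ± 0.660 on Day 3.

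**Figure D2:**
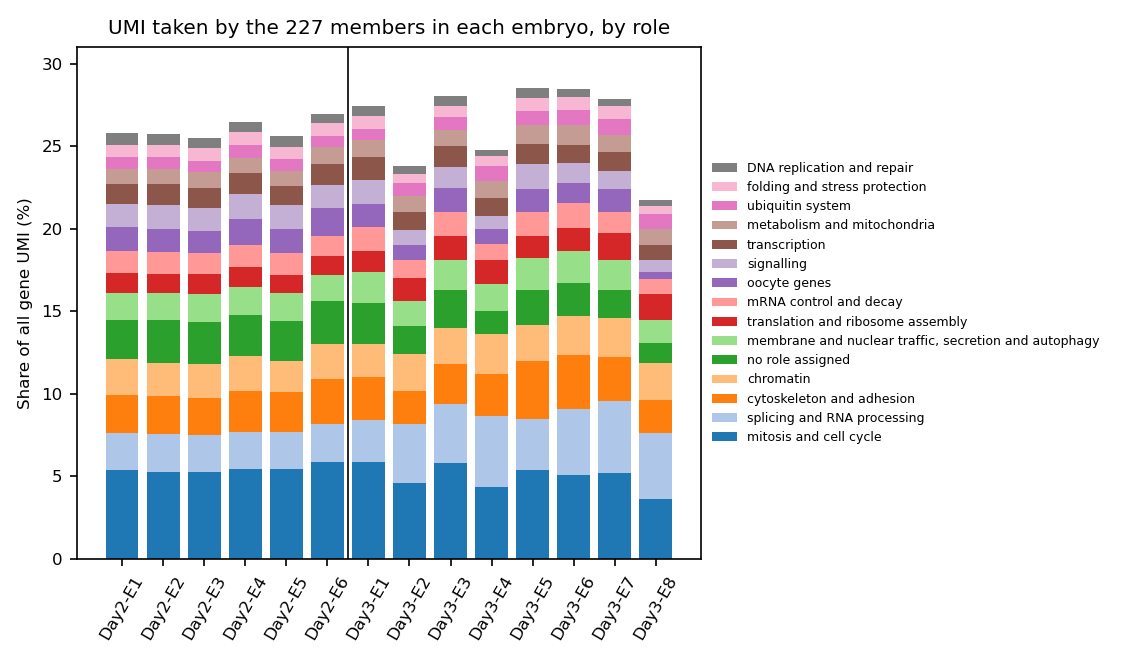
Share of all UMI on genes taken by the 227 members in each of the 14 embryos (vertical axis, percent), stacked by role. The total lies near 26.0% in all Day 2 embryos and between 21.7% and 28.5% on Day 3, and the mean share of splicing and RNA processing genes is 2.26% on Day 2 and 3.68% on Day 3.

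Each member was given 1 of 14 roles by hand after the members were known, and 19 members got none. The group with the largest share of the UMI was mitosis and cell cycle, whose 18 members took 5.43% ± 0.232 (SD, n = 6) in Day 2 embryos and 4.98% ± 0.758 (SD, n = 8) in Day 3 embryos. The 29 members of splicing and RNA processing took 2.26% ± 0.0333 and 3.68% ± 0.607. The 17 members of cytoskeleton and adhesion took 2.42% ± 0.164 and 2.63% ± 0.548, the 19 of chromatin 2.07% ± 0.0955 and 2.25% ± 0.123. The 11 members of the ubiquitin system took 0.727% ± 0.0342 and 0.850% ± 0.0924, and the 10 of folding and stress protection 0.752% ± 0.0196 and 0.666% ± 0.0995. The smallest share on both days was that of the 7 members of DNA replication and repair (0.640% ± 0.0360 and 0.507% ± 0.104).

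AURKA, the Aurora A kinase that drives spindle assembly, had the highest level of all genes in the table. It was at 19219.5, 20383 and 21839 CPM in the lowest, median and highest Day 2 embryo and at 8760.4, 18959.9 and 22866 on Day 3. As a share of the UMI this was 2.04% ± 0.0909 (SD, n = 6) for Day 2 embryos. For Day 3 embryos it was 1.72% ± 0.536 (SD, n = 8). Of the other 4 division genes among the 12 most abundant members, CKS2 rose and is described with its group below, and 3 were not called: TACC3, which stabilises spindle microtubules together with AURKA, PRC1, which bundles the microtubules of the central spindle, and CDCA8 (borealin), a subunit of the chromosomal passenger complex. TACC3 was at 4108, 4489 and 6746 CPM on Day 2 and 2083, 4237 and 6385 on Day 3. PRC1 was at 4274, 4645 and 4726 CPM on Day 2 and 1228, 3344 and 4517 on Day 3, with 1 Day 2 embryo, Day2-E3, below the other 5. CDCA8 was at 3327, 3669.8 and 4206 CPM on Day 2 and 2688, 3548 and 4579.6 on Day 3. All 4 genes overlapped between the days.

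The most abundant members outside this group were of mixed function, and 1 of these 7, the thymosin TMSB10, rose and is described with the cytoskeleton. TMSB4X was at 5503 ± 1577 CPM (SD, n = 6) in Day 2 embryos and 7514 ± 4825 (SD, n = 8) in Day 3 embryos. RGS2, a regulator of G protein signalling that is abundant in oocytes, was at 4817 ± 382 and 2732 ± 1722 CPM, and PAIP1, which binds poly(A)-binding protein in translation, at 3543 ± 285 and 2797 ± 1383. DPPA3, a maternal factor that protects DNA methylation in the zygote, was at 2764 ± 364 and 3286 ± 1037 CPM. ANKRD17, an ankyrin repeat protein, was at 3617 ± 239 and 2365 ± 846 CPM, and HMGN2, a nucleosome-binding protein, at 3562 ± 319.7 and 2074 ± 1049. For none of the other 6 genes did the test between the days pass the threshold (edgeR, adjusted p from 0.0676 for HMGN2 to 0.668 for PAIP1), but the tests of RGS2, ANKRD17 and HMGN2 did pass without Day3-E1, with log2 fold changes of -0.82, -0.46 and -0.67, and that of DPPA3 passed without Day3-E8, at 0.55. RGS2 and HMGN2 passed also without Day3-E5 (-0.80 and -0.73), ANKRD17 without Day3-E3 (-0.47) and DPPA3 without Day3-E2 (0.54).

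The days were compared by edgeR's quasi-likelihood test over all 5274 genes with enough UMI, which included all 227 members, with Benjamini-Hochberg adjustment and a threshold of 0.05. Of the members, 70 (30.8%) rose and 19 (8.37%) fell on Day 3, and 138 did not pass. Among all tested genes 21.18% were called higher and 11.28% lower. Members were thus called higher more often and lower less often than the genes at large, a difference that was not tested. The choice of members by detection bears on both shares, so nothing is read from this difference. A p that misses the threshold does not show that a gene is steady, so steadiness was read from the 95% interval of the fold change. With TMM scaling, this interval lay wholly within a 2-fold change in either direction for 135 members (59.5%), against 44.18% of all tested genes. The members were the more abundant genes, at a median of 801 CPM against 19.9 over the whole table, which can narrow such intervals. Nothing is therefore read from the difference between these 2 shares. Of these 135, 9 were also called higher and 7 lower, and 119 passed no test. The median log2 fold change was 0.18 over the members and -0.04 over all tested genes, and the median size of the change was 0.44 and 0.50.

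In the plain CPM values, every Day 3 embryo lay above every Day 2 embryo for 25 members (11.01%) and below for 9 (3.96%), where over all tested genes these shares were 3.982% and 5.385%. Of the called members, 46 had a fitted rise and 4 a fitted fall of more than 2-fold, where 17.35% and 3.868% of all tested genes did. The whole interval lay above a 2-fold rise for 22 members and below a 2-fold fall for 0, against 8.646% and 0.03792% of all tested genes. The choice of members by detection limits large falls, so nothing is read from this imbalance.

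These counts depend on how the embryos are scaled. TMM scaling, which assumes that most genes do not change, raised the log2 fold change of the members by a median of 0.25 over plain CPM, so a gene with equal CPM on both days has a fitted change of about this size. Without TMM the median over the 5274 genes shifted from -0.04 to -0.27 on the log2 scale, and 55 members were called higher and 35 lower (16.88% and 18.60% of all tested genes). Scaled to the ERCC spike-in, it moved to -0.77, and 22 members were called higher and 60 lower (8.65% and 36.2% of all tested genes). The ratio of genes to ERCC moved with the barcode set, and the part of the set in that result was not tested. All 19 members that fell and 22 that rose were called in the same direction under the 4 scalings (TMM, none, RLE and ERCC), and 19 of the 70 that rose had a log2 fold change below 0 with ERCC scaling, none of them called lower. The members within 2-fold numbered 124 without TMM and 47 with ERCC scaling (36.94% and 11.24% of all tested genes). Under TMM, no TMM and RLE alike, 108 members stayed within 2-fold. Only 6 did so under every setting but plate 2 alone, and 0 under all 26 settings. Within the first barcode set (2 Day 3 embryos) 30 members were called higher and 1 lower, against 5.28% and 0.388% of all genes tested there. Fits within plates 2 and 3 cannot tell day from barcode set, since the 2 coincide there. Within plate 3, with 4 Day 2 and 2 Day 3 embryos, the counts were 83 and 22 (15.22% and 9.44% of all genes). Within plate 2, with 2 embryos of each day, they were 48 and 15 (19.4% and 9.48%), and over both plates with plate as a term 69 and 34 (19.9% and 18.0%). Of the risers named below, CCNB1, PNN, H3F3B, RHOA, UBB, CNBP, DDIT3, SEC61B, SEC61G, BUB3, ACTB, FXR1, TUBA1B, NAMPT, STK35, RBM38, ATF4, SMC4, PIM1 and SGTA were not called with ERCC scaling, and CCNB1 and SGTA were not called without TMM either. Without Day3-E1, 76 members were called higher and 34 lower, against 23.96% and 17.7% of all tested genes.

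**Figure D3:**
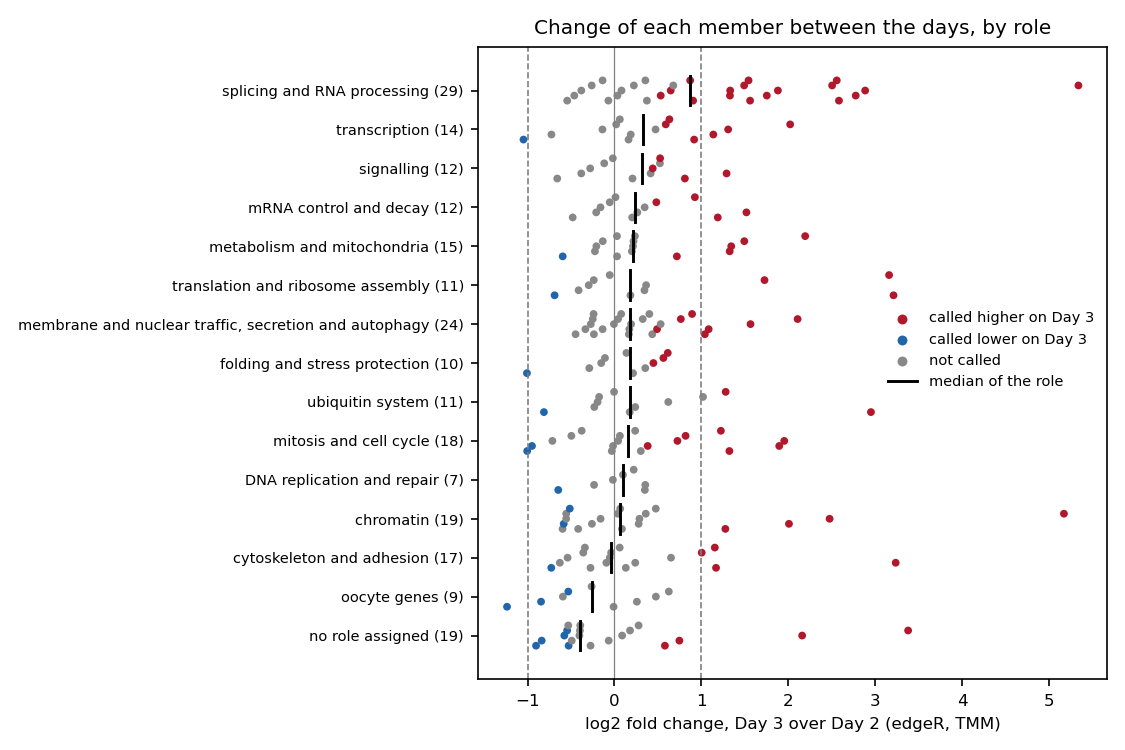
Log2 fold change of each of the 227 members, Day 3 over Day 2 (horizontal axis, edgeR with TMM scaling), by role (vertical axis, number of members in brackets). Points in red were called higher and in blue lower, grey points were not called, short black lines are the medians of the roles, and dashed lines mark a 2-fold change. Splicing and RNA processing has the highest median (0.87) of the 14 named roles and oocyte genes the lowest (-0.26).

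The medians of the roles moved with the scaling: without TMM only those of splicing, signalling (0.07) and transcription (0.06) were above 0, and with ERCC scaling only that of splicing. The counts by role below, also those within 2-fold, come from the TMM fit unless another scaling is named. They stand beside 21.18% of all tested genes called higher, 11.28% called lower and 44.18% within 2-fold. Roles hold few members and were not tested against these shares, so a count near them is not read as a result about a role.

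Splicing and RNA processing genes had the highest median change of the 14 roles. These genes cut introns from new transcripts and shape their ends, and of the 29 members 17 rose and 0 fell, with a median log2 fold change of 0.87 (0.58 without TMM and 0.03 with ERCC scaling, where 8 rose and 4 fell). TRA2B, a splicing regulator of the SR-like family, was at 77.6, 96.1 and 105 CPM in the lowest, median and highest Day 2 embryo and at 353, 3488 and 4902 on Day 3. The groups did not overlap, and its log2 fold change of 5.34 (standard error 0.53) was the largest of all members (edgeR, adjusted p = 7.99e-06). It was also one of the members that lay just inside the threshold. DDX5, an RNA helicase of transcription and splicing, was at 438, 472 and 540.0 CPM on Day 2 and 855, 2916 and 4338 on Day 3, without overlap (log2 fold change 2.89, standard error 0.33, edgeR adjusted p = 3.24e-05). LUC7L3, a protein linked to the U1 particle, rose from 239.5 ± 13.15 to 1283 ± 602 CPM, without overlap, by 2.78 on the log2 scale (edgeR, adjusted p = 0.000124). SON, a protein of nuclear speckles, went from 467 ± 73.7 to 2168 ± 1026 CPM, and it rose by 2.58 on the log2 scale (edgeR, adjusted p = 0.000307), with Day3-E1 within the Day 2 range.

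Further members of this group rose as well. SRSF2, an SR protein that defines exons, had a log2 fold change of 2.56, RSRC2 of 2.51, PABPN1, the nuclear poly(A)-binding protein, of 1.88, RBM4 of 1.75 and PNN of 1.33. In 9 of the 29 members the groups did not overlap and Day 3 was higher, against 11.01% of all members and 3.982% of all tested genes. These shares were not tested against each other. The list of mRNA-binding and RNA processing factors drawn up for this tissue held 89 tested genes, of which 46 rose and 3 fell. Its 17 members (10 rose, 0 fell, median log2 fold change 0.93) stood beside 72 tested genes that are not members (36 rose, 3 fell, median 0.85), a difference that was not tested.

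Of 12 members in mRNA control and decay, 4 rose, 0 fell and 9 stayed within 2-fold (3 rose and 1 fell without TMM, 0 and 2 with ERCC scaling). CNBP, a nucleic acid-binding protein that promotes translation, rose from 728 ± 186 to 1107 ± 238 CPM (log2 fold change 0.93), with Day2-E5 above the other Day 2 embryos, and FXR1 by 1.19. RBM38, an RNA-binding regulator of mRNA stability, was at 294 ± 40.2 and 697 ± 356 CPM and rose by 1.52 on the log2 scale (edgeR, adjusted p = 0.00149). YBX1, a cold-shock domain protein that binds mRNA, was within 2-fold, at 1670.1, 1945 and 2772 CPM on Day 2 and 1551, 2009 and 2506 on Day 3, and the groups overlapped. The interval of its log2 fold change ran from -0.12 to 0.53.

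The mitosis and cell cycle genes moved apart from each other. Of 18 members 7 rose, 2 fell and 8 stayed within 2-fold (without TMM 6 rose and 3 fell, with ERCC scaling 2 and 5). AURKA and TACC3 stayed within 2-fold, with log2 fold changes of -0.03 (95% interval -0.39 to 0.32) and -0.02 (-0.45 to 0.42). Without TMM the change of AURKA was -0.25 and with ERCC scaling -0.70. Neither passed the test, which does not show that its level was steady. For both AURKA and TACC3, at least 1 setting other than plate 2 alone gave an interval that reached beyond 2-fold. CKS2, a small subunit of cyclin-dependent kinase complexes, was at 2278, 2686 and 3598 CPM on Day 2 and 3279, 7885 and 13886 on Day 3, and its rise of 1.95 on the log2 scale (standard error 0.35, edgeR adjusted p = 0.000716) came with Day3-E1 in the Day 2 range. The spindle checkpoint gene MAD2L1 and the condensin subunit SMC4 rose by 1.90 and 1.32. BUB3, another checkpoint gene, was at 504, 635 and 680.3 CPM on Day 2 and 707, 849.8 and 1156 on Day 3, without overlap, and its log2 fold change of 0.82 (edgeR, adjusted p = 0.00759) was -0.03 with ERCC scaling.

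CENPF and NUSAP1 were the 2 division genes that fell. CENPF, a large kinetochore protein, was at 3361, 3804 and 4935 CPM on Day 2 and 849, 1420.1 and 2632 on Day 3, with all Day 3 embryos below (log2 fold change -0.95, standard error 0.22, edgeR adjusted p = 0.00348). NUSAP1, which binds spindle microtubules, was at 2515, 2843 and 2974 CPM on Day 2 and 324, 931 and 2691 on Day 3 (log2 fold change -1.01, edgeR adjusted p = 0.0238), and its Day 3 values reached into the Day 2 range in Day3-E1 only. CCNB1, the mitotic cyclin B1, was called higher with a log2 fold change of 0.38 (-0.38 with ERCC scaling), and the call was lost without any 1 of 12 embryos (adjusted p 0.0516 to 0.155), all but Day3-E1 and Day3-E3. On the list of mitosis and cell cycle genes, 7 of the 13 members rose and 2 fell, against 14 and 10 of the 48 tested genes that are not members.

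Among the cytoskeleton and adhesion genes, 4 of 17 members rose, 1 fell and 9 stayed within 2-fold. TMSB10, like TMSB4X an actin-binding thymosin, was at 526, 632 and 706 CPM on Day 2 and 791, 3819 and 8287 on Day 3. The groups did not overlap and the log2 fold change was 3.24 (standard error 0.53, edgeR adjusted p = 0.000353), whereas that of TMSB4X was 0.65 (95% interval -0.06 to 1.36), which did not pass. ACTB, beta-actin and a common reference gene, rose from 479.8 ± 82.4 to 891 ± 276 CPM (log2 fold change 1.17, edgeR adjusted p = 0.00119), and RHOA, a small GTPase of the actin network, by 1.00. The alpha-tubulin genes TUBA1B and TUBA1C had log2 fold changes of 1.16 (called) and -0.63 (not called). They encode near-identical proteins, and whether reads were split between them in counting was not tested. The call of TUBA1B was lost without Day2-E3, Day2-E4 or Day2-E5 (log2 fold change 0.99, 0.99 and 1.07), while TUBA1C passed without Day3-E1 (-0.74) or Day3-E6 (-0.79). DYNC1I2, an intermediate chain of the dynein motor, fell from 3282 ± 153 to 1749 ± 938 CPM (log2 fold change -0.73, edgeR adjusted p = 0.0289, and 0.0520 without Day3-E7). CTNNAL1, an alpha-catenin-like protein, had 1 of the 10 narrowest intervals, at 434 ± 43.2 and 352 ± 61.9 CPM with an interval from -0.36 to 0.28. Of the cytoskeleton list 3 of 9 members rose and 1 fell, against 6 and 6 of 40 other tested genes.

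Of 19 chromatin members 4 rose, 2 fell and 13 stayed within 2-fold (4 and 5 without TMM, 3 and 8 with ERCC scaling). H2AFZ, the histone variant H2A.Z and a reference gene in some expression studies of embryos, was at 114, 139 and 164 CPM on Day 2 and 258, 3882 and 7158 on Day 3. The groups did not overlap, and the log2 fold change was 5.17 (standard error 0.66, edgeR adjusted p = 5.93e-05). It had a UMI in every kept cell. H3F3B, a gene of histone H3.3, rose by 1.28, SAP18, a subunit of a histone deacetylase complex, by 2.48, and the remodeller CHD2 by 2.01.

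Among the chromatin members that act in DNA methylation, chosen after their values were seen, UHRF2 was called. UHRF1, which guides the maintenance methyltransferase, was at 1838 ± 177 and 1324 ± 459.8 CPM with a log2 fold change of -0.26 (95% interval -0.62 to 0.10). DNMT1, the methyltransferase itself, was at 1148 ± 104 and 682 ± 315 CPM with a change of -0.56 that did not pass (edgeR, adjusted p = 0.0608) but did without Day3-E1, Day3-E3 or Day3-E5 (-0.63 each). UHRF2, a relative of UHRF1, fell by 0.58 on the log2 scale. HMGB2, a DNA-bending protein, was at 2551 ± 700.2 and 1905 ± 275 CPM, with a change of -0.16. In the list of histones and chromatin proteins, 3 of 16 members rose and 1 fell, against 16 and 3 of 42 other tested genes.

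In translation and ribosome assembly 3 of 11 members rose, 1 fell and 7 stayed within 2-fold. BZW1, a regulator of start codon choice, was at 251, 269 and 292 CPM on Day 2 and 377, 1776 and 3674 on Day 3 (log2 fold change 3.21, standard error 0.49, edgeR adjusted p = 0.000222). FAU, whose product is a ubiquitin-like protein fused to ribosomal protein S30, was at 455, 495 and 636 CPM on Day 2 and 758, 3431 and 5868 on Day 3 (log2 fold change 3.161, standard error 0.44, edgeR adjusted p = 0.00012). Neither gene overlapped between the days. PWP1, a ribosome assembly factor, fell by 0.69 on the log2 scale. TRMT112, a partner of several methyltransferases, was at 1045 ± 159.6 and 859 ± 231 CPM, with an interval from -0.39 to 0.28. Among listed translation-linked genes outside the families left out, 3 of 7 members rose and 0 fell, against 17 and 2 of 37 other tested genes.

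In the ubiquitin system 2 of 11 members rose, 1 fell and 6 stayed within 2-fold. SIAH1, an E3 ubiquitin ligase, was at 241, 292 and 352 CPM on Day 2 and 457, 1724 and 3194 on Day 3, without overlap (log2 fold change 2.95, standard error 0.39, edgeR adjusted p = 9.08e-05). RNF34, another ligase, fell from 1086 ± 43.5 to 541 ± 296 CPM, by 0.81 on the log2 scale (edgeR, adjusted p = 0.0159), with Day3-E1 in the Day 2 range. RNF10 was within 2-fold, at 697 ± 51.8 and 576 ± 134 CPM with an interval from -0.37 to 0.36. UBB, a polyubiquitin gene that could share reads with other ubiquitin genes, rose by 1.28 on the log2 scale. Within the list of ubiquitin and ubiquitin-like modifiers 3 of 7 members rose and 1 fell, against 12 and 5 of 34 other tested genes.

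Of the 24 members of membrane and nuclear traffic, secretion and autophagy, 17 stayed within 2-fold, 7 rose and 0 fell (5 rose and 1 fell without TMM, 1 and 3 with ERCC scaling). GDI2, which recycles Rab GTPases, was at 1148, 1211 and 1252 CPM on Day 2 and 484, 1099 and 1448 on Day 3, and its fitted change was -0.01 (95% interval -0.36 to 0.34). The Day 3 values spread far more widely than the Day 2 values, which the interval does not show. STT3B, the catalytic subunit of an oligosaccharyltransferase, was narrow on both days, at 428, 476 and 541 CPM on Day 2 and 400.1, 446 and 552 on Day 3. GOLGA7, a cofactor of a palmitoyltransferase, was at 696 ± 47.2 and 612 ± 205 CPM. SEC61B and SEC61G, subunits of the channel that takes proteins into the endoplasmic reticulum, rose by 0.89 and 1.57, and ATG14, a factor of autophagosome formation, by 2.108. On the list of vesicle traffic genes and small GTPases 3 of 10 members rose and 0 fell, against 10 and 8 of 63 other tested genes.

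Metabolism and mitochondria had 15 members, of which 5 rose, 1 fell and 10 stayed within 2-fold. CS, citrate synthase at the entry of the citric acid cycle, fell from 738 ± 88.4 to 409 ± 78.1 CPM, and every Day 3 embryo was below every Day 2 embryo (log2 fold change -0.60, standard error 0.14, edgeR adjusted p = 0.00541). LDHA, a lactate dehydrogenase subunit, was at 714 ± 154 and 566 ± 274 CPM with a change of -0.13 (95% interval -0.63 to 0.36), though within plate 3 it was higher on Day 3, at 0.59. NAMPT, which makes a precursor of NAD, and NUDT4 rose by 1.49 and 2.195. On the list of energy metabolism enzymes, 0 of 3 members rose and 1 fell, against 6 and 6 of 43 other tested genes, and no gene on the list of iron storage and oxygen handling was a member (0 of 6 tested rose and 3 fell).

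Of the 9 members that are oocyte genes, 0 rose (1 with RLE scaling) and 3 fell, and 5 stayed within 2-fold, with a median log2 fold change of -0.26 (-0.46 without TMM, -0.93 with ERCC scaling). OOSP1, an oocyte-secreted protein, was at 2231, 3093 and 4242 CPM on Day 2 and 178, 1054 and 2721 on Day 3. Its log2 fold change of -1.24 (standard error 0.37, edgeR adjusted p = 0.0177) was the largest fall of all members, and the groups overlapped. NPM2, a histone chaperone of the egg, fell from 1278 ± 114 to 627 ± 359 CPM (log2 fold change -0.85, edgeR adjusted p = 0.0303), with Day2-E6 below the other Day 2 embryos, and did not pass without Day2-E2, Day3-E4 or Day3-E7 (-0.84, -0.75 and -0.81). ZP2, a protein of the egg coat, fell from 1164 ± 124 to 697 ± 263 CPM (log2 fold change -0.53, edgeR adjusted p = 0.045), a call that was lost without any 1 of 10 embryos (adjusted p 0.0501 to 0.0783), all but Day2-E3, Day3-E1, Day3-E3 and Day3-E8.

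The other oocyte genes did not pass. SYCP3, a protein of the meiotic chromosome axis, had the largest positive change of the 9. It was at 668, 773 and 936 CPM on Day 2 and 707, 885 and 1659 on Day 3, with overlap and with Day3-E4 far above the others. Its log2 fold change of 0.63 (edgeR, adjusted p = 0.0503) passed with RLE scaling (0.66) and without Day3-E1, Day3-E3 or Day3-E5 (0.68, 0.68 and 0.70), and it was -0.24 with ERCC scaling. ZP4, a further coat protein, was at 1189.7 ± 89.4 and 864 ± 377 CPM, KPNA7, an importin of oocytes, at 2183 ± 316 and 2244 ± 903, and H1FOO, the linker histone of oocytes, at 951 ± 68.0 and 819 ± 369.5. The intervals of these 3 lay within 2-fold, and H1FOO was called higher within plate 3 with a log2 fold change of 0.59. ZAR1L, a relative of the zygote arrest gene, was at 1157 ± 138 and 669 ± 292 CPM with a change of -0.59 (edgeR, adjusted p = 0.0549), and passed without Day3-E1, Day3-E5 or Day3-E8 (-0.65, -0.69 and -0.50). On the wider list of oocyte and maternal-effect genes, which also holds RGS2, NASP and RNF114, 0 of 11 members rose and 3 fell, against 2 and 7 of the 14 other tested genes. RNF114, an E3 ligase, was at 696 ± 109 and 519 ± 270.2 CPM, within 2-fold.

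Signalling genes included 4 of 12 members that rose and 0 that fell, with 8 within 2-fold. WDR20, a partner of deubiquitinating enzymes, was at 751 ± 88.9 and 633 ± 206 CPM (interval -0.37 to 0.33), and YWHAE, a 14-3-3 adaptor, at 2446 ± 115 and 1734 ± 619. The kinases PIM1 and STK35 rose by 0.81 and 1.29, the former with a change of -0.09 under ERCC scaling. CALM2, a calmodulin gene, was below the Day 2 range in all Day 3 embryos in CPM, 2104 ± 298 against 1338 ± 236, but did not pass (edgeR, adjusted p = 0.0894). On the list of signalling adaptors, kinases and phosphatases 1 of 5 members rose and 0 fell, against 15 and 1 of 44 other tested genes.

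Of 14 transcription members 6 rose, 1 fell and 6 stayed within 2-fold. LEO1, a subunit of the PAF1 elongation complex, was at 2492, 2898 and 3598 CPM on Day 2 and 368, 1116 and 2708 on Day 3 (log2 fold change -1.05, standard error 0.32, edgeR adjusted p = 0.019), with Day3-E1 in the Day 2 range. ATF4 and DDIT3, transcription factors of the integrated stress response, rose by 1.31 and 1.14, and SNAPC2, a subunit of the complex that starts small nuclear RNA genes, by 2.02. HBP1, a repressor of cell cycle genes, was at 587 ± 80.2 and 490.1 ± 59.4 CPM (interval -0.33 to 0.37), with Day2-E4 above the other Day 2 embryos. GPBP1 was at 1103 ± 119 and 1243 ± 216 CPM.

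In folding and stress protection, 9 of 10 members stayed within 2-fold, of which 3 rose by less than that. None of these 3 rises was called without TMM (0 higher, 1 lower) or with ERCC scaling (0 higher, 3 lower). The exception was DNAJA1, a co-chaperone of HSP70, at 838, 998 and 1376 CPM on Day 2 and 221, 449 and 701 on Day 3, with all Day 3 embryos below (log2 fold change -1.01, standard error 0.20, edgeR adjusted p = 0.00145). SGTA, another co-chaperone, rose by 0.61, which turned to -0.19 with ERCC scaling. On the list of protein folding, ER and redox proteins 3 of 8 members rose and 1 fell, against 17 and 5 of 71 other tested genes. In DNA replication and repair, 6 of 7 members stayed within 2-fold. TYMS, thymidylate synthase, had the narrowest bounds of all members with TMM scaling, at 375, 469 and 559 CPM on Day 2 and 293, 387 and 519.9 on Day 3, with an interval of -0.33 to 0.29. Its log2 fold change was -0.26 without TMM. With ERCC scaling TYMS was called lower, at -0.75 (edgeR, adjusted p = 0.0492). NASP, a histone chaperone, was at 1150.2 ± 87.1 and 1025 ± 165 CPM (interval -0.20 to 0.39). LIG1, the ligase of replication, fell from 1913 ± 159.6 to 1066 ± 480.3 CPM (log2 fold change -0.65, edgeR adjusted p = 0.0264, and 0.0528 without Day2-E1).

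Of the 19 members without a role 4 rose and 5 fell. LOC780876, a protein-coding locus without a name in the annotation, was at 94.5, 168 and 190.2 CPM on Day 2 and 133, 937 and 2878 on Day 3 (log2 fold change 3.38, standard error 0.62, edgeR adjusted p = 0.000793), with Day3-E1 in the Day 2 range. LOC100336984, also unnamed, fell from 2749.9 ± 1086 to 1339 ± 528 CPM (log2 fold change -0.84, edgeR adjusted p = 0.0243, and 0.0676 without Day2-E6). CCDC181, a coiled-coil protein, fell from 1188 ± 141 to 559 ± 309.6 CPM (log2 fold change -0.90, edgeR adjusted p = 0.0128), and FANK1 by 0.58 on the log2 scale, with all Day 3 embryos below. FAM192A was at 1552 ± 125 and 1282 ± 491 CPM.

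**Figure D4:**
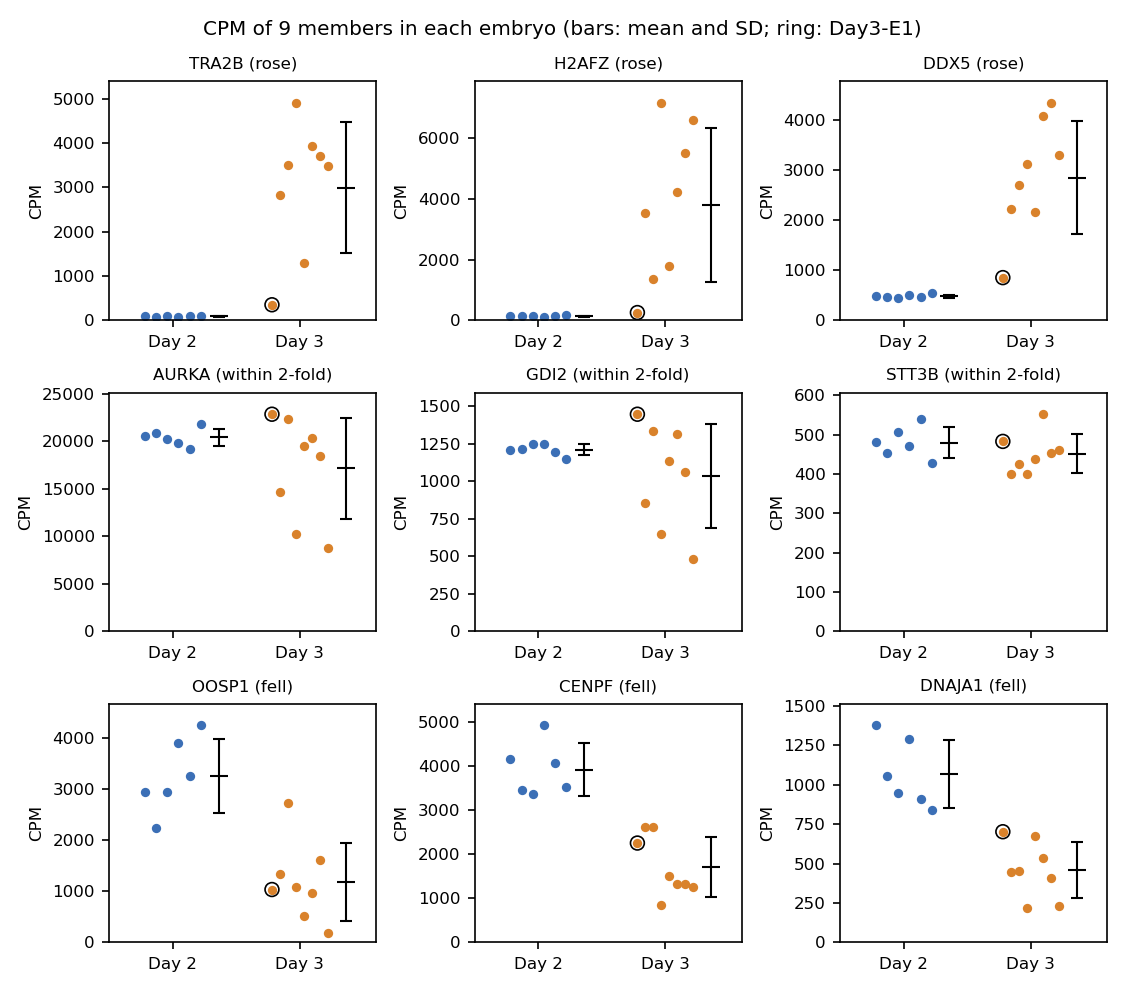
CPM of 9 members in each Day 2 (blue) and Day 3 (orange) embryo, each panel with its own linear axis from 0. Points are embryos, black bars the mean and SD (n = 6 and n = 8), and the ring marks Day3-E1. TRA2B, H2AFZ and DDX5 rose with Day3-E1 as the lowest Day 3 embryo, AURKA, GDI2 and STT3B overlap between the days, and OOSP1, CENPF and DNAJA1 fell.

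Embryos of 1 day were far more alike on Day 2 than on Day 3. The coefficient of variation (CV) of a member over embryos had a median of 10.63% on Day 2 and 35.8% on Day 3, and it was higher on Day 3 for 220 of the 227 members. Over all tested genes the medians were 18.4% and 45.4%. Without Day3-E1 the Day 3 median was 34.6%, and over the 5 embryos of the second barcode set it was 35.6%. The spread had an order. Among the 70 members that rose, the lowest Day 3 embryo was Day3-E1 for 43 and Day3-E2 for 10, and the highest was Day3-E4 for 22 and Day3-E8 for 21. Among the 19 that fell, the highest Day 3 embryo was Day3-E1 for 13 and the lowest Day3-E8 for 13. Day3-E1 thus lay nearest to Day 2 and Day3-E8 farthest for most members that fell, and of the 89 called members 39 were within the Day 2 range in Day3-E1.

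Cells of 1 embryo also differed by more than counting error. The spread beyond Poisson counting, given as a CV and as the median over the 14 embryos, was 14.21% for the median member, with 9.21% on Day 2 and 19.8% on Day 3. It was largest for TMSB4X (35.6%), RBM38 (30.1%), OOSP1 (28.8%), HMGB2 (28.1%) and TUBA1B (27.9%). Among the smallest values were those of CETN2 (3.75%), which encodes a centrin of the centrosome, GPBP1 (5.45%), STT3B (5.57%) and BUB3 (5.69%). CETN2 was at 611 ± 54.9 CPM (SD, n = 6) in Day 2 embryos and 545 ± 179 (SD, n = 8) in Day 3 embryos, within 2-fold. Across cells, the share of UMI taken by all members had a Spearman correlation with the UMI of the cell of -0.42 over 43 Day 2 cells and -0.10 over 118 Day 3 cells. These values are given as a description, since cells of 1 embryo are not independent.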

How the data were processed

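Single blastomeres of 14 embryos were sequenced by SCRB-Seq. The authors mapped the reads to Bos tau7 and the ERCC reference with STAR 2.5.2b and made UMI counts with the Drop-seq pipeline, and the deposited counts were used as they stand, with 170 cells. The deposited normalised table was not used. Cells with 2000 or more UMI were kept (161) and summed per embryo, which was the replicate. The depth of each embryo is given above as a range, and counting error is smallest for the deepest. Embryos of 1 day may share parents and culture, which the sources used here do not state.

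Day 3 was compared with Day 2 by edgeR 4.0.16 (glmQLFit and glmQLFTest, TMM scaling, low counts filtered by filterByExpr) under R 4.3.3, with Benjamini-Hochberg adjustment over all 5274 tested genes. Fold changes are Day 3 over Day 2, with 95% intervals. DESeq2 1.42.0, other scalings, filters, thinning, batches and left-out embryos were alternatives. Embryos with the same number on both days did not deviate together (correlations from -0.131 to 0.0168), so numbers were not taken as pairs.

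Named genes were the 12 members with the highest level, the 10 largest rises and falls among those called, the 10 with the narrowest interval, the 5 with the highest and lowest spread between cells, those at the threshold and those on the oocyte list. Other named genes were chosen after their values were seen, as examples of a function. The members, roles and lists were chosen with earlier results of these data known. Gene names were matched to RefSeq, 214 by symbol and 12 by synonym, and 1 had no match. A few members that meet these rules are not reported here.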

Additional observations from a re-analysis of the deposited data

Results flagged for a closer look

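In 10 of 198 sets of embryos examined, 9 of Day 2 and 1 of Day 3, an embryo lay far from the others of its day (Dixon's criterion, which chance meets in about 1 set in 20). On Day 2 the highest embryo stood apart for ATG14 (569.6 CPM in Day2-E6, others up to 403.7), CNBP (1099 CPM in Day2-E5, others up to 683.6), HBP1 (745.9 CPM in Day2-E4, others up to 589.9), LDHA (1009 CPM in Day2-E6, others up to 726.6), LIG1 (2221 CPM in Day2-E1, others up to 1949.6) and RNF10 (794.2 CPM in Day2-E3, others up to 700.2). On Day 2 the lowest embryo stood apart for BUB3 (503.5 CPM in Day2-E6, others from 615.5), NPM2 (1062 CPM in Day2-E6, others from 1259) and PRC1 (4274 CPM in Day2-E3, others from 4615). On Day 3 the highest embryo stood apart for SYCP3 (1659 CPM in Day3-E4, others up to 973.1).

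The 9 cells below 2000 UMI entered no comparison, and members took 24.9% of their UMI.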

How the results depend on the processing

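Of the 70 members called higher and 19 called lower, 54 and 12 were also called without each embryo in turn. The counts ranged from 55 to 76 higher, 14 to 34 lower (34 without Day3-E1, 14 without Day3-E7) and 127 to 149 within 2-fold when 1 embryo was left out. ERCC scaling gave 22 higher, 60 lower and 47 within 2-fold, no TMM 35 lower, the first barcode set 30 higher and 1 lower, plates 2 and 3 with a plate term 34 lower, plate 2 alone 13 within 2-fold, and DESeq2 34 lower. With the embryo number as a replicate block, 45 were called higher and 7 lower, but the numbers pair nothing in these data. The number of members was 54 with detection in all kept cells, 766 with 150 cells and 7 after thinning to 2000 UMI. The difference in share was 0.00725 to 0.976 points with 1 embryo left out. With ERCC scaling the log2 fold change was -0.031 for BUB3, -0.38 for CCNB1, -0.086 for PIM1 and -0.19 for SGTA, and within plate 3 it was 0.59 for H1FOO and 0.59 for LDHA. The cause of these changes was not tested. The 2 settings of the spread over Day 3 embryos (without Day3-E1, second barcode set) were chosen after seeing the data. Depth limits detection most in the shallowest cells.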
